A study of Mus musculus with 10 samples.

Results

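Innate lymphoid cells (ILCs) of the epidermis were compared with the ILCs of the dermis that had been sorted as CCR6+. The comparison used the 3 libraries titled as epidermal and the 2 titled as dermal CCR6+, which are 5 of the 10 libraries of the series, and all 47643 gene IDs in the files. The series profiled RNA of ILCs from successive layers of mouse skin, and its other 5 libraries held dermal Sca1+ ILCs and subcutaneous ILCs. These other libraries entered the count filter, the scaling, the estimate of spread and the principal components, but not the contrast itself. All mice were adult and of the strain B6, and no treatment, transgene or deletion is named in the labels. The labels name no sort marker for the epidermal cells and none besides CCR6 for the dermal cells, and they do not give sex, age in weeks or the number of animals. Total RNA was amplified with a kit made for very small inputs. The expected counts of RSEM, which shares ambiguous reads between genes, were used for tests, and TPM, which corrects for gene length and scales each library to a common total, for levels.

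ILCs are lymphocytes of tissues and barriers that lack rearranged antigen receptors and respond to cytokines of the cells around them. Type 3 ILCs and the related lymphoid tissue inducer cells make IL-17, IL-22 and lymphotoxins, whereas type 2 ILCs depend on GATA3 and make IL-5 and IL-13. CCR6 is the receptor of the chemokine CCL20, which epithelia make, and is a usual marker of lymphoid tissue inducer-like ILCs. In skin, ILCs sit near hair follicles and sebaceous glands and can act on keratinocytes, the epithelial cells of the epidermis.

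The 5 libraries held 12703447 to 18118544 expected counts, and between 15013 and 17049 genes had at least 1. On the first 2 principal components of log2 CPM over all 10 libraries, with 44.2% and 16.2% of the variance, the epidermal libraries lay at -163.5 to -133 and 43.2 to 53.5, and the dermal CCR6+ libraries at -51.7 and 1.7 and at -85.4 and -68.2. No 2 replicates of a group were alike within counting noise: their chi-square statistics were 53.6 to 140.7 times the degrees of freedom. Whether each replicate is a different animal is not in the labels, so the p-values reflect how much these particular libraries vary, in part perhaps for technical reasons. An exact permutation test of 3 against 2 libraries cannot give a two-sided p below 0.1, so single genes were tested only in the fit over all genes. Epidermal replicate 1 stood apart within its group in several gene groups, and those values are given where they occur.

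Values in TPM are listed below in the order of epidermal replicates 1, 2 and 3 against dermal CCR6+ replicates 1 and 2. Log2 fold changes are epidermal minus dermal CCR6+, from the quasi-likelihood test of edgeR, with p-values adjusted by the Benjamini-Hochberg method over 16208 genes. A gene was called at an adjusted p under 0.05. Each call was also checked in alternative fits, described with the processing. Where lost calls are listed, losses other than those without single libraries are not always named, while ranges of adjusted p cover every alternative.

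The test called 1001 genes (6.18% of those tested), of which 160 were higher in epidermal ILCs (0.987%) and 841 lower (5.19%). The count of each gene list below is to be read beside these shares. The genes with the most extreme changes are known from other cells of the skin: cornified envelope genes such as Lor were on the epidermal side, and collagen and vessel genes such as Col3a1 and Plvap were on the dermal side. Among lymphoid genes, Ltb and Il13 were called higher and Gata3, Rora, Icos and S1pr1 lower in epidermal ILCs. Higher genes made up 15.98% of the calls with edgeR, 29.2% with DESeq2 and 34.7% with limma on log2(TPM + 1), so the imbalance between directions was smaller with other tools. Of the higher genes 42 had no count in the dermal CCR6+ libraries, and of the lower genes 202 had none in the epidermal ones. Every epidermal library lay above both dermal ones in 18.3% of all tested genes and below both in 15.4%. The groups did not overlap in 159 of the 160 higher and 833 of the 841 lower calls. Statements below that groups were apart therefore describe levels and add no support to a call. Without single libraries, the higher calls fell to 78 without epidermal replicate 2, 72 without epidermal replicate 3 and 59 without dermal CCR6+ replicate 2, and the lower calls stayed between 573 and 883.

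**Figure D1:**
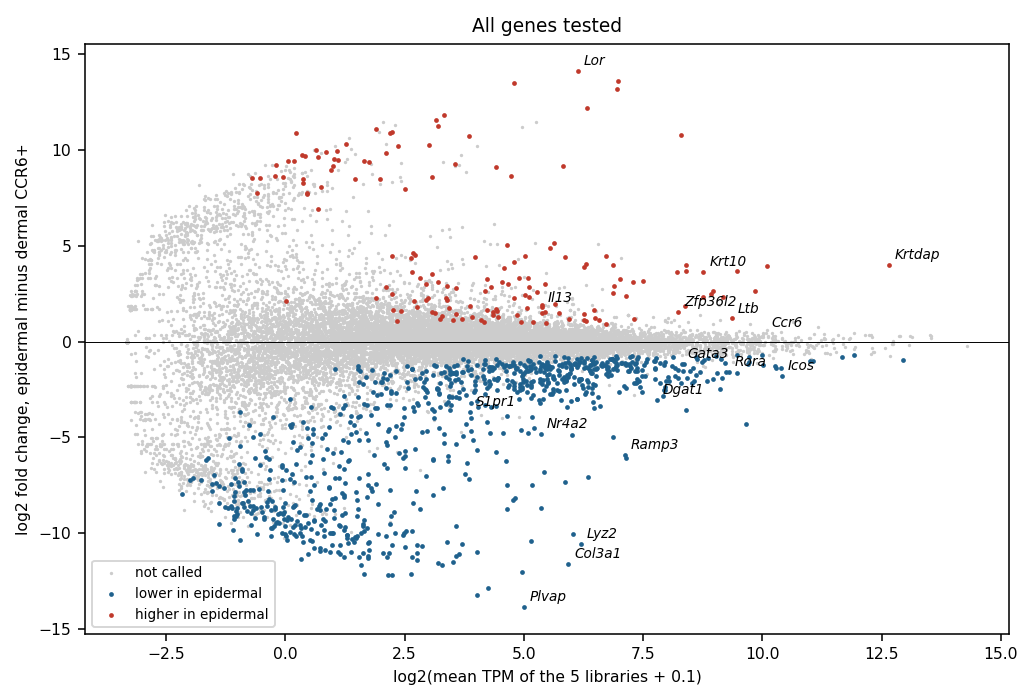
Log2 fold change (epidermal minus dermal CCR6+) of the 16208 genes tested against the log2 of the mean TPM over the 5 libraries plus 0.1. Red points are the 160 genes called higher, blue points the 841 called lower in epidermal ILCs and grey points were not called. Lor lies near the top at 14.14, Krtdap and Krt10 lie at 3.99 and 3.62, and Plvap, Col3a1 and Lyz2 lie at the bottom. The labelled lymphoid genes Gata3, Rora, Icos and S1pr1 lie at -1.17, -1.57, -1.79 and -3.66.

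Marker genes of other skin cells were examined first, because sorted cells can carry RNA of their surroundings. Of 18 tested genes of differentiated keratinocytes, 15 were higher in epidermal libraries and none lower, with a median log2 fold change of 3.74 beside 0.00 for all genes tested. Krt10, the keratin of cells that have left the basal layer, was at 693, 722 and 657 TPM against 47.3 and 56.95 TPM (log2 fold change 3.62 ± 0.23 (SE), edgeR adjusted p = 4.15e-05), and all epidermal libraries lay above both dermal ones. Lor, which encodes the main protein of the cornified envelope, was at 28.7, 139 and 184 TPM against 0 and 0 TPM and at least 1505-fold higher against a floor of 3 counts over the dermal group. The level of this list was uneven within the epidermal group: its summed level was 5507, 22278 and 20707 TPM against 1294 and 1434 TPM, lowest in epidermal replicate 1. The count of 15 fell to 5 without either dermal library, in fits where the group left with 1 library was assumed to vary like the others. None of 13 basal keratinocyte genes was called by edgeR (3 at an unadjusted p under 0.05, 1 by DESeq2 and 0 by limma), and Krt14, a keratin of the basal layer, was at 408, 726 and 1018 TPM against 438 and 195 TPM, with groups that overlapped.

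On the dermal side, 11 of 15 fibroblast genes, 11 of 12 endothelial genes, 5 of 15 macrophage and dendritic cell genes, 5 of 9 mast cell and basophil genes and 4 of 9 adipocyte and muscle genes were called lower in epidermal libraries, and none of these lists had a member called higher. Col3a1, a fibrillar collagen, was at 0.01, 0.03 and 0.05 TPM against 187 and 117 TPM (log2 fold change -11.62 ± 0.50 (SE), edgeR adjusted p = 4.84e-06), with both dermal libraries far above the epidermal ones. Plvap, a protein of vessel walls, had no count in any epidermal library and 106 and 53.97 TPM in the dermal ones, at least 2145-fold higher there. Lyz2, the lysozyme gene of macrophages and neutrophils, was at 0.08, 0 and 0.240 TPM against 187 and 178 TPM. The summed levels over whole lists were 8.42, 8.64 and 29.3 TPM against 1270.3 and 728 TPM for fibroblasts, 5.31, 1.08 and 3.72 TPM against 246 and 104 TPM for endothelium and 13.5, 9.39 and 13.9 TPM against 264 and 238 TPM for macrophages and dendritic cells. Of the defining genes, Pdgfra of fibroblasts, Cdh5, Kdr and Tek of endothelium, and Mrc1, Itgax and Cd209a of macrophages and dendritic cells had no count in any epidermal library. The macrophage and dendritic cell count of 5 was 3 without dermal CCR6+ replicate 1. These levels moved with the layer, as did the lymphoid genes described below, and their part in those differences was not tested. In bulk RNA, fewer cells of a type and less RNA per cell cannot be told apart.

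**Figure D2:**
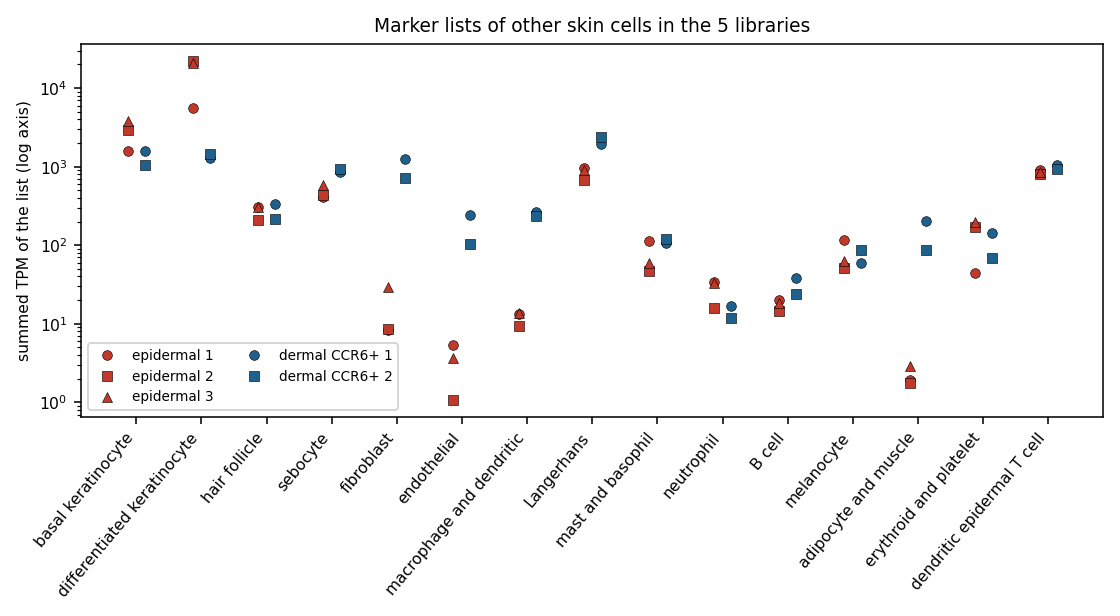
Summed TPM (log axis) of each marker list of other skin cells, with 1 point per library; red points are epidermal and blue points dermal CCR6+ libraries, and the point shape gives the replicate. Fibroblast, endothelial, macrophage and muscle sums are far lower in all epidermal libraries, while differentiated keratinocyte sums are higher and lowest in epidermal replicate 1 within its group.

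Both populations expressed the genes of the sort and of lymphocyte identity. Ccr6 (ENSMUSG00000040899.13), at 8236043 to 8257141 on mm10 chromosome 17, was measured at 1250.3, 1339 and 1111 TPM against 768 and 919 TPM, above the dermal libraries in each epidermal one, but with a wide error in the shared fit (log2 fold change 0.44 ± 1.28 (SE), edgeR adjusted p = 0.929). Ptprc, which encodes the pan-leukocyte protein CD45, was at 456, 239 and 198 TPM against 237 and 228 TPM and Thy1, a surface protein of many ILCs, at 168, 198 and 130.2 TPM against 181 and 187 TPM. Il7r, the receptor of the survival cytokine IL-7, was at 240.2, 187 and 198 TPM against 207 and 219 TPM. In these 3 genes the groups overlapped and none was called. Ly6a, which encodes Sca1 and has near-identical family members that may share reads, was at 394, 449.8 and 536 TPM against 436 and 214 TPM and was not called either.

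T cells share several of these genes. Of 22 T cell receptor and CD3 genes, 1 was called higher (Themis) and 1 lower, beside 0.987% and 5.19% over all genes tested. The summed level of the list was 3718, 3111 and 3124 TPM against 3569 and 3982 TPM, with overlapping groups. Its most abundant gene by mean level, the T cell receptor beta constant gene Trbc2, was at 748, 764 and 815 TPM against 669 and 781 TPM. The chain gene Cd3g was at 470.1, 521 and 447 TPM against 704 and 633 TPM, and the delta variable segment gene Trdv4 was at 371, 232 and 326 TPM against 189.6 and 239 TPM. None of these 3 genes was called. The part of T cells in the results was not tested. Themis had 166 counts over the epidermal libraries and none in the dermal ones, and lost its call without epidermal replicate 2 or 3, without either dermal library and in the fit of the 5 libraries (adjusted p of 0.00105 to 0.128 over 13 alternatives). Lower in level, Cd3e was at 13.4, 12.3 and 13.4 TPM against 79.1 and 23.6 TPM and the T cell receptor constant gene Trac at 56.9, 61.9 and 70.9 TPM against 99.99 and 81.95 TPM, both higher in each dermal library and neither called. Cd4 and Cd8a stayed at or under 2.81 TPM, and Foxp3, the factor of regulatory T cells, at or under 1.57 TPM in all 5 libraries. None of the 8 genes of dendritic epidermal T cells was called by edgeR (1 at an unadjusted p under 0.05, 1 by DESeq2 and 0 by limma), and their summed level was 905, 814 and 845 TPM against 1045 and 943 TPM. Trbc2, Cd3e, Trac, Cd4, Cd8a and Foxp3 were chosen after their values were seen.

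Genes of type 2 ILCs were called in both directions. Of 27 tested, 9 were lower (Gata3, Rora, Il5, Areg, Calca, Klrg1, Icos, Ccr8 and Neurl3) and 3 higher (Il13, Arg1 and Nmur1), although the median log2 fold change of the list was 0.02. Gata3 (ENSMUSG00000015619.10, chromosome 2, 9857078 to 9890034, mm10), the transcription factor that type 2 ILCs depend on, was at 271, 189 and 214 TPM against 422 and 496 TPM. The groups did not overlap, and the log2 fold change was -1.17 ± 0.20 (SE), edgeR adjusted p = 0.00611. Rora (ENSMUSG00000032238.17, chromosome 9, 68653786 to 69388246, mm10), the nuclear receptor that type 2 ILC development needs, was at 406, 323 and 324 TPM against 977 and 1104 TPM, with a log2 fold change of -1.57 ± 0.17 (SE), edgeR adjusted p = 0.000521. Icos, a costimulatory receptor, was at 912, 583 and 647 TPM against 2071 and 2631 TPM (log2 fold change -1.79 ± 0.20 (SE), edgeR adjusted p = 0.000552). Each dermal library held more than all epidermal ones for these 3 genes, and their calls were kept in all 15 alternatives run.

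The secreted products of type 2 ILCs did not move together. Il5 (ENSMUSG00000036117.2, chromosome 11, 53720794 to 53725106, mm10), the cytokine that sustains eosinophils, was at 165, 58.1 and 76.3 TPM against 235 and 269 TPM (log2 fold change -1.52 ± 0.29 (SE), edgeR adjusted p = 0.0114). Il13 (ENSMUSG00000020383.1, chromosome 11, 53631324 to 53634702, mm10), a neighbour of Il5 on the same chromosome that acts on epithelia, went the other way, at 70.3, 56.1 and 49.1 TPM against 17.5 and 13.5 TPM (log2 fold change 1.79 ± 0.36 (SE), edgeR adjusted p = 0.0151). In both genes the groups were apart, with epidermal replicate 1 the highest of its group. Areg, which encodes the growth factor amphiregulin, was at 144, 51.9 and 43.03 TPM against 299 and 294 TPM (log2 fold change -2.09 ± 0.36 (SE), edgeR adjusted p = 0.00631). Calca, the gene of the neuropeptide CGRP, was at 31.3, 21.7 and 24.1 TPM against 91.3 and 119.6 TPM (log2 fold change -2.09 ± 0.32 (SE), edgeR adjusted p = 0.00314). Both were lower in every epidermal library. Ramp3 (ENSMUSG00000041046.7, chromosome 11, 6658521 to 6677475, mm10), which encodes a partner protein of the receptors for CGRP-related peptides, was at 7.71, 7.57 and 3.54 TPM against 333 and 344 TPM (log2 fold change -5.90 ± 0.33 (SE), edgeR adjusted p = 1.90e-05), and both dermal libraries were far above all epidermal ones. It was chosen after its values were seen. The receptor gene Nmur1, through which neuromedin U acts on type 2 ILCs, was called higher at 2.13, 0.230 and 3.93 TPM against 0 and 0 TPM, on 99 epidermal counts against none, at least 19.1-fold. Arg1, the arginase of type 2 ILCs, was at 23.6, 21.6 and 21.4 TPM against 9.37 and 9.43 TPM, with a log2 fold change of 1.12 ± 0.22 (SE), edgeR adjusted p = 0.0132.

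Several of these calls were lost in at least 1 alternative. The Il13 call was lost without either dermal library (adjusted p of 6.28e-05 to 0.123 over 15 alternatives), as was that of Arg1 (7.11e-05 to 0.164), which was also lost in a fit of the 5 libraries alone. The Il5 call was lost without dermal CCR6+ replicate 2 and in the fit of the 5 libraries (1.96e-07 to 0.0604), and that of Ccr8 without dermal CCR6+ replicate 2 (5.18e-07 to 0.0551). Klrg1 lost its call in the fit of the 5 libraries alone (1.17e-14 to 0.181), and Nmur1 without epidermal replicate 3, without either dermal library, in that fit and with limma (9.29e-07 to 0.188). Areg, Calca, Neurl3 and Ramp3 kept theirs in all 15. The higher count of 3 was 1 without dermal CCR6+ replicate 1 and 0 without dermal CCR6+ replicate 2. The receptor genes of the cytokines that activate type 2 ILCs were not called: Il1rl1 of the IL-33 receptor was at 1.61, 0 and 0 TPM against 0.940 and 0.07 TPM, Il17rb at 122, 46.4 and 61.6 TPM against 44.4 and 80.98 TPM, Il18r1 at 128, 87.2 and 97.8 TPM against 80.8 and 90.7 TPM and Crlf2 of the TSLP receptor at 32.8, 18.9 and 24.7 TPM against 29.01 and 31.5 TPM. Icos, Neurl3 and Arg1 were chosen after their values were seen.

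Among 21 tested genes of type 3 ILCs and lymphoid tissue inducer cells, 1 was called higher and 1 lower, with a median log2 fold change of -0.27. The shares over all genes tested were 0.987% higher and 5.19% lower. Ltb (ENSMUSG00000024399.5, chromosome 17, 35194439 to 35196320, mm10), which encodes the membrane part of lymphotoxin, was at 846, 825 and 914 TPM against 292 and 402 TPM (log2 fold change 1.21 ± 0.29 (SE), edgeR adjusted p = 0.0338). The epidermal libraries lay close together and above both dermal ones. Its partner Lta was at 179, 145 and 149 TPM against 52.4 and 68.5 TPM, with the same separation, but was not called (log2 fold change 1.26 ± 0.64 (SE), edgeR adjusted p = 0.315). Lta was called higher in 2 of 15 alternatives, over which its log2 fold change was 1.10 to 1.74. Tnfsf11, the gene of the cytokine RANKL, was lower at 22.8, 11.9 and 15.1 TPM against 33.1 and 33.2 TPM (log2 fold change -1.15 ± 0.22 (SE), edgeR adjusted p = 0.0121).

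The type 3 cytokines had wide errors in the shared fit, with an SE of 1.57 for Il17a, 1.78 for Il17f and 1.55 for Il22. Within the dermal group their 2 libraries lay close together. Il17a was at 8.66, 4.14 and 3.79 TPM against 19.9 and 22.1 TPM and Il17f at 39.4, 5.68 and 10.5 TPM against 50.2 and 55.7 TPM, lower in each epidermal library and not called (edgeR adjusted p = 0.540 and 0.680). Il22 was at 24.5, 6.98 and 8.88 TPM against 11.8 and 14.2 TPM, with overlapping groups. Neither Ahr, the dioxin receptor that maintains IL-22 producers, at 17.4, 11.7 and 14.2 TPM against 12.4 and 6.82 TPM, nor Tbx21, the factor of type 1 ILCs, at 3.60, 1.95 and 3.37 TPM against 3.10 and 9.58 TPM, was called. Ifng was at 3, 0 and 1.5 TPM against 0.08 and 0 TPM, close to nothing in most libraries. The Ltb call was lost without epidermal replicate 2 or 3 and without either dermal library (adjusted p of 0.000361 to 0.217 over the alternatives), and the Tnfsf11 call without either dermal library, in the fit of the 5 libraries and with limma (5.90e-05 to 0.0788).

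**Figure D3:**
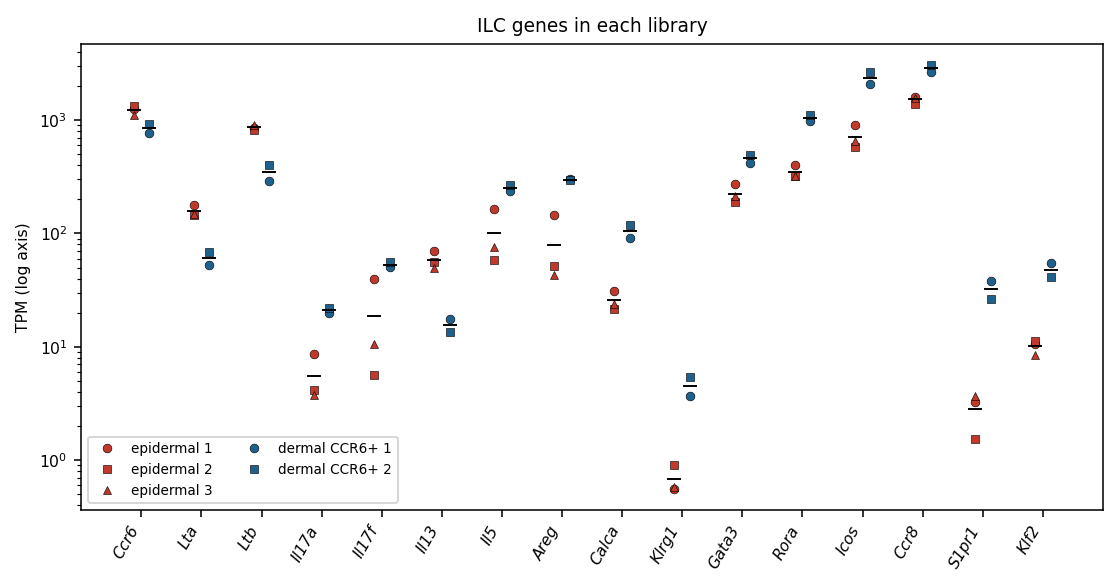
TPM (log axis) of ILC genes in each library, with 1 point per library and a black bar at the group mean; red points are epidermal, blue points dermal CCR6+ libraries. Ccr6, Lta, Ltb and Il13 have every epidermal point above the dermal ones, and the genes from Il5 to Klf2, together with Il17a and Il17f, have every epidermal point below them.

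Of 26 lineage transcription factors tested, 4 were lower (Gata3, Rora, Ikzf3 and Pparg) and none higher. Ikzf3, which encodes the lymphoid zinc finger protein Aiolos, was at 309, 174 and 233 TPM against 665 and 694 TPM (log2 fold change -1.61 ± 0.19 (SE), edgeR adjusted p = 0.000622), and its call was kept in all alternatives. Pparg, the lipid-sensing nuclear receptor, was at 2.85, 1.06 and 2.35 TPM against 8.28 and 6.79 TPM, low in all libraries, and lost its call without dermal CCR6+ replicate 1 and in the fit of the 5 libraries (3.75e-05 to 0.165). The count of 4 rose to 7 without epidermal replicate 1.

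Ligands of the TNF superfamily split between the groups. Of 17 tested, Ltb and Tnfsf10 were higher and Tnfsf8 and Tnfsf11 lower. Tnfsf10, the gene of the death ligand TRAIL, was at 38.1, 19.9 and 28.1 TPM against 10.9 and 12.2 TPM (log2 fold change 1.30 ± 0.33 (SE), edgeR adjusted p = 0.0452), and Tnfsf8, the ligand of CD30, at 11.01, 7.13 and 7.73 TPM against 37.01 and 34.8 TPM (log2 fold change -2.20 ± 0.36 (SE), edgeR adjusted p = 0.00475). Tnf itself was at 101, 48.7 and 35.95 TPM against 27.8 and 35.1 TPM, above in each epidermal library but not called (edgeR adjusted p = 0.250). The Tnfsf10 call was lost without epidermal replicate 1 or 3 or either dermal library, in the fit of the 5 libraries and with limma (0.00278 to 0.260), and that of Tnfsf8 was kept throughout.

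The receptors of this superfamily were called in 1 direction: 7 of 22 were lower, none was higher, and the median log2 fold change was -0.52. Tnfrsf1b, the second TNF receptor, was at 166, 50.4 and 66.8 TPM against 429 and 536 TPM (log2 fold change -2.55 ± 0.39 (SE), edgeR adjusted p = 0.00299). Tnfrsf9, which encodes the costimulator 4-1BB, was at 15.9, 11.01 and 12.9 TPM against 50.5 and 85.8 TPM (log2 fold change -2.25 ± 0.24 (SE), edgeR adjusted p = 0.000442). Tnfrsf4, which encodes OX40, was at 124, 81.9 and 68.98 TPM against 251 and 216 TPM (log2 fold change -1.55 ± 0.25 (SE), edgeR adjusted p = 0.00438). In all 3 genes the lowest dermal library lay above the highest epidermal one. Cd27 was at 91.2, 117 and 98.6 TPM against 286 and 241 TPM and the glucocorticoid-induced receptor gene Tnfrsf18 at 414, 349 and 335 TPM against 542 and 698 TPM, both chosen after their values were seen. The Tnfrsf18 call was lost without any 1 of the 5 libraries (0.000670 to 0.217), and those of the other 4 genes, and of the death receptor gene Tnfrsf10b (log2 fold change -2.51 ± 0.41 (SE), edgeR adjusted p = 0.00457), were kept in all alternatives.

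Cytokine receptor genes were called only in the lower direction, at 9 of 38 against 5.19% over all genes. Il4ra, the receptor chain shared by IL-4 and IL-13, was at 35.02, 11.1 and 17.1 TPM against 145 and 139 TPM (log2 fold change -2.98 ± 0.37 (SE), edgeR adjusted p = 0.000896). Il21r was at 38.2, 16.6 and 15.04 TPM against 173 and 193 TPM (log2 fold change -3.16 ± 0.45 (SE), edgeR adjusted p = 0.00209). Epidermal replicate 1 was the highest of its group for both and still under each dermal library. The 2 chains of the interferon gamma receptor were both lower: Ifngr1 was at 155, 109.7 and 165 TPM against 493 and 644 TPM (log2 fold change -2.16 ± 0.23 (SE), edgeR adjusted p = 0.000444) and Ifngr2 at 37.5, 25.97 and 25.1 TPM against 91.3 and 113 TPM (log2 fold change -2.07 ± 0.19 (SE), edgeR adjusted p = 0.000178). Ifnar1, a chain of the type I interferon receptor, was at 47.3, 52.2 and 28.4 TPM against 162 and 159.7 TPM (log2 fold change -2.24 ± 0.28 (SE), edgeR adjusted p = 0.000913). Il2rb, the chain that IL-2 and IL-15 share, was at 391, 212 and 319 TPM against 814 and 930.2 TPM (log2 fold change -1.65 ± 0.26 (SE), edgeR adjusted p = 0.00385). All 6 calls were kept in all alternatives.

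The 3 remaining calls of this list were Csf2rb2, Csf1r and Il6st. Csf2rb2 and Csf1r, receptors of myeloid cells, had 0 and 30 counts over the epidermal libraries and 355 and 394 over the dermal ones, where macrophage markers were also higher, and the part of those cells was not tested. Csf2rb2 lost its call with limma (4.62e-16 to 0.155) and Csf1r in 7 of 15 alternatives, without epidermal replicate 2 or dermal CCR6+ replicate 1 among them (1.41e-33 to 0.204). Il6st, the signalling chain of the IL-6 family, was at 2.75, 3.62 and 4.27 TPM against 22.6 and 3.67 TPM, high in 1 dermal library alone, and lost its call without that library (edgeR adjusted p = 0.677), without any 1 epidermal library and in other alternatives (6.97e-11 to 0.677). Ifngr1, Ifngr2, Ifnar1, Il2rb and Il6st were chosen after their values were seen.

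**Figure D4:**
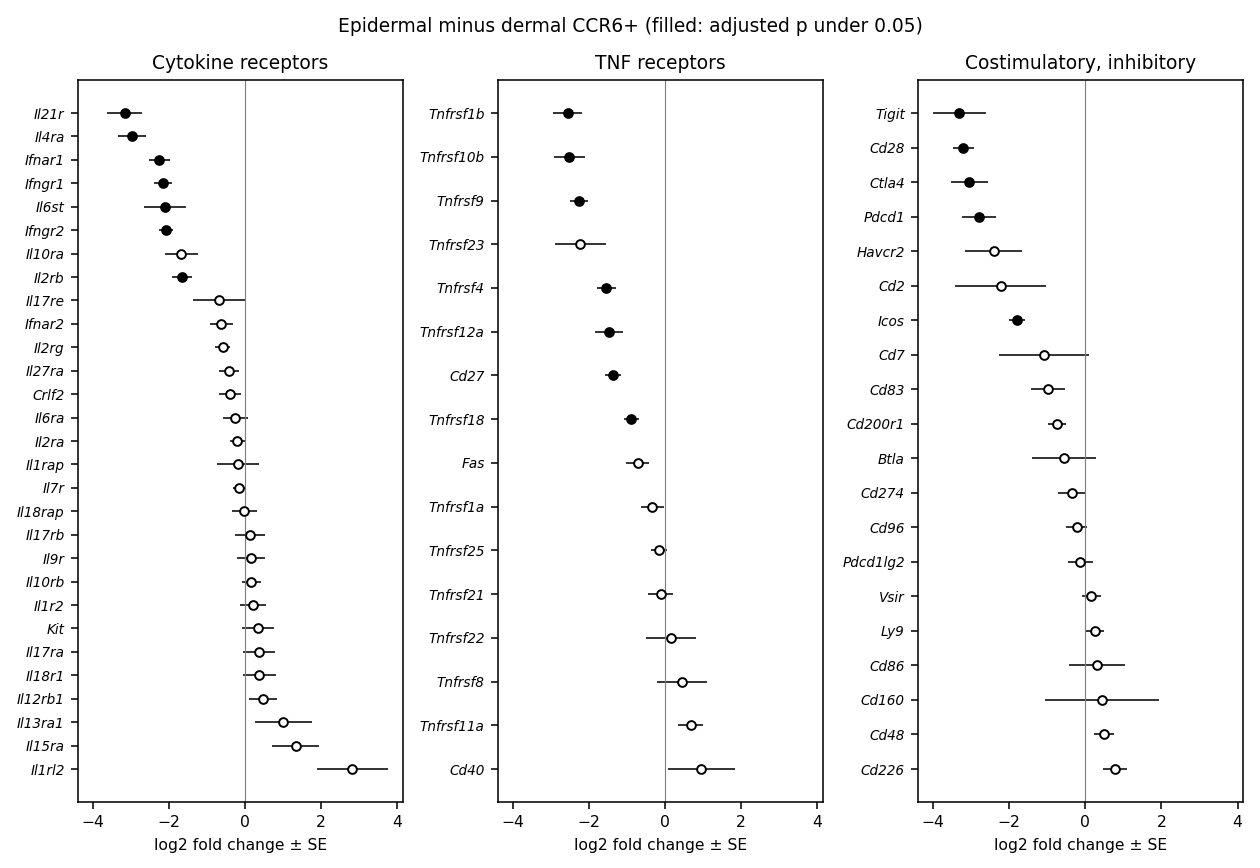
Log2 fold change (epidermal minus dermal CCR6+) with its SE for the tested cytokine receptor, TNF receptor and costimulatory or inhibitory receptor genes that reached 10 TPM in at least 1 of the 5 libraries; filled points were called. Every filled point lies left of 0, and Il7r, Il17rb and Il18r1 lie at -0.16, 0.13 and 0.38.

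Costimulatory and inhibitory receptors of lymphocytes were lower in 5 of 26 cases and higher in none, with a median log2 fold change of -0.65. Besides Icos, these were Cd28, Ctla4, Pdcd1 and Tigit. Cd28, which gives T cells a second activating signal, was at 4.60, 2.63 and 3.55 TPM against 30.99 and 32.2 TPM (log2 fold change -3.20 ± 0.28 (SE), edgeR adjusted p = 0.000137), and Ctla4, which competes with it for ligands, at 21.3, 5.16 and 8.40 TPM against 58.9 and 106 TPM (log2 fold change -3.04 ± 0.49 (SE), edgeR adjusted p = 0.00397). Pdcd1, which encodes the inhibitory receptor PD-1, was at 21.8, 3.65 and 11.3 TPM against 71.6 and 74.6 TPM (log2 fold change -2.78 ± 0.45 (SE), edgeR adjusted p = 0.00418). For each of them the 2 groups were apart. Tigit was at 3.40, 1.61 and 2.83 TPM against 14.7 and 32.3 TPM and lost its call without epidermal replicate 2 or 3 or dermal CCR6+ replicate 2 (9.55e-05 to 0.121), while the calls of the other 4 genes were kept. Several of these genes are also T cell genes, whose levels are given above.

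Of 27 genes in the list of egress and residency, 5 were lower in epidermal ILCs and none higher. They were S1pr1, Klf2, Rgs2, Adora2a and Litaf. S1pr1 (ENSMUSG00000045092.8, chromosome 3, 115710433 to 115715072, mm10), the receptor through which lymphocytes leave tissue towards lymph, was at 3.24, 1.53 and 3.69 TPM against 38.1 and 26.5 TPM (log2 fold change -3.66 ± 0.44 (SE), edgeR adjusted p = 0.000752). Klf2, the transcription factor that drives S1pr1, was at 10.7, 11.2 and 8.52 TPM against 54.3 and 41.5 TPM (log2 fold change -2.36 ± 0.25 (SE), edgeR adjusted p = 0.000384). In both genes the dermal libraries were well above all epidermal ones, and both calls were kept throughout. The residency genes Itgae, which encodes the integrin CD103 that binds epithelial cadherin, and Cd69, which opposes S1pr1 at the surface, were at 1151, 288 and 367 TPM against 368 and 474 TPM and at 650.2, 303 and 329 TPM against 312 and 199 TPM, with epidermal replicate 1 highest and no call. The count of 5 was 3 without epidermal replicate 2 or either dermal library. Adora2a lost its call without dermal CCR6+ replicate 1 and in the fit of the 5 libraries (3.77e-08 to 0.0919), Rgs2 without epidermal replicate 2 or 3 or dermal CCR6+ replicate 2 (2.57e-06 to 0.163), and Litaf, chosen after its values were seen, without epidermal replicate 2 or either dermal library (0.000272 to 0.127).

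Chemokine receptors gave 3 lower calls and 1 higher among 20, beside 5.19% and 0.987% over all genes tested. Ccr8, a receptor of skin-homing lymphocytes, was at 1592, 1399.96 and 1573 TPM against 2651 and 3059 TPM (log2 fold change -1.02 ± 0.18 (SE), edgeR adjusted p = 0.00659), more abundant than Ccr6 in each library on this length-corrected scale. Ccrl2, a receptor that presents chemerin rather than signalling, was at 24.1, 9.91 and 11.1 TPM against 75.6 and 56.9 TPM, and its call was kept in all alternatives. Ccr4 was at 34.8, 23.6 and 27.7 TPM against 38.6 and 73.1 TPM and lost its call without epidermal replicate 2 or 3 or dermal CCR6+ replicate 2, in the fit of the 5 libraries and with limma (0.00151 to 0.326). Ccr9 was called higher on 93 counts against none, at most 1.16 TPM, and lost its call without epidermal replicate 2 or 3 or either dermal library, among others (0.00139 to 0.376). Ccr7, the receptor for migration to lymph nodes, was at 75.8, 33.3 and 43.8 TPM against 303 and 336 TPM, lower in every epidermal library, with an edgeR adjusted p of 0.0723 that missed the threshold. It was called lower in 3 of 15 alternatives, over which its log2 fold change was -3.06 to -2.16. It was chosen after its values were seen.

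Chemokine ligands were lower in 9 of 21 cases, several of them genes of stromal and myeloid cells: Ccl8 and Ccl11 were at 0, 0 and 2.60 TPM against 82.4 and 21.8 TPM and 0, 0 and 0 TPM against 8.63 and 2.83 TPM, in libraries that also held fibroblast and macrophage RNA. The part of those cells was not tested. The count was 4 without dermal CCR6+ replicate 1. The Ccl8 call was lost without epidermal replicate 1 or 2 or dermal CCR6+ replicate 1 and in the fit of the 5 libraries (6.23e-34 to 0.115), and the Ccl11 call in that fit (3.25e-11 to 0.0623). The interferon-inducible chemokine gene Cxcl10, at 34.6, 23.3 and 22.6 TPM against 167 and 149 TPM (log2 fold change -2.62 ± 0.35 (SE), edgeR adjusted p = 0.00147), differed from these in being present in all epidermal libraries, and its call was kept. Among secreted cytokines and growth factors, 8 of 33 were lower and 3 higher. Il6, made by many stromal and immune cells, was at 1.42, 0 and 0.09 TPM against 106 and 17.6 TPM and Il1b, mainly a myeloid gene, was without counts in the epidermal libraries and at 8.16 and 7.60 TPM in the dermal ones. Il1rn and Btc, which keratinocytes also make, were higher. Il1rn was at 12.99, 36.2 and 36.3 TPM against 4.23 and 3.51 TPM and Btc at 3.12, 6.70 and 13.3 TPM against 0 and 0 TPM. Both were lowest in epidermal replicate 1 within their group, as was the differentiated keratinocyte sum. The part of keratinocytes in these levels was not tested. The lower count of 8 was 5 without dermal CCR6+ replicate 2. Il1rn and Btc lost their calls without epidermal replicate 2 or 3 or either dermal library (1.08e-11 to 0.201 and 3.19e-07 to 0.141), and the higher count was 1 or 0 without any 1 of these 4 libraries. Il1rn was chosen after its values were seen.

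Interferon response genes, in contrast to the receptors, moved in both directions. Of 33, 3 were lower (Isg15, Oasl1 and Cxcl10) and 2 higher (Stat2 and Gbp7), beside 5.19% and 0.987% over all genes tested. The median log2 fold change was -0.59. Isg15, a ubiquitin-like protein, was at 24.6, 11.4 and 12.5 TPM against 104 and 88.9 TPM (log2 fold change -2.74 ± 0.31 (SE), edgeR adjusted p = 0.000528). Stat2, a transcription factor that interferon receptors activate, was at 12.8, 7.91 and 7.74 TPM against 1.86 and 3.03 TPM (log2 fold change 1.82 ± 0.40 (SE), edgeR adjusted p = 0.0221). The guanylate-binding protein gene Gbp7 was at 20.04, 13.2 and 15.4 TPM against 6.99 and 3.26 TPM (log2 fold change 1.46 ± 0.27 (SE), edgeR adjusted p = 0.00812) and was chosen after its values were seen. The groups did not overlap in any of the 3 genes. Isg15 kept its call in all alternatives, whereas Stat2 lost it without either dermal library and in the fit of the 5 libraries (0.000189 to 0.161), Gbp7 without dermal CCR6+ replicate 2 and in that fit (6.55e-06 to 0.0750), and Oasl1 in that fit and with limma (1.45e-10 to 0.116). The lower count of 3 was 5 without dermal CCR6+ replicate 2, and the higher count of 2 was 1 and 0 without dermal CCR6+ replicates 1 and 2.

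The upstream sequence of these genes is shown because genes of both directions carried the same element. The interferon-stimulated response element was searched on both strands as GAAA followed, after 2 bases of any kind, by GAAA in the 250 bases before each RefSeq start site (GRCm38.p6), and 2.98% of 32851 promoters held it. The stretches below are written 5′ to 3′ on the strand of the gene, with the matches in capitals, and Isg15 holds 3 overlapping ones.
Isg15 (chr4:156200855-156200916, minus strand): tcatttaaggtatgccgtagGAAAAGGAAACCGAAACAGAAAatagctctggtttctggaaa
Cxcl10 (chr5:92349073-92349122, minus strand): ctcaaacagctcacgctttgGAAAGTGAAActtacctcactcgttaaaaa
Stat2 (chr10:128270256-128270305, plus strand): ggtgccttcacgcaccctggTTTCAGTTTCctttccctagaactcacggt
Gbp7 (chr3:142530263-142530312, plus strand): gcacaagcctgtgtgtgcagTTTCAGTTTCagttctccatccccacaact
The matches of Isg15 and Cxcl10 began 78 and 213 bases before the start site, and those of Stat2 and Gbp7 222 and 53 bases before it, where they read on the opposite strand. The first pair fell and the second rose in epidermal ILCs. A match is a description of these letters, not evidence of binding, and the genes were picked after their values were seen.

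NF-kB is a family of transcription factors that TNF receptors and many cytokines activate. Of 27 NF-kB pathway and target genes, 9 were lower and none higher, with a median log2 fold change of -0.95. Nfkbie, which encodes an inhibitor that holds NF-kB in the cytoplasm, was at 26.2, 11.8 and 14.6 TPM against 138 and 125 TPM (log2 fold change -3.08 ± 0.30 (SE), edgeR adjusted p = 0.000250). Rel, an NF-kB subunit of lymphocytes, was at 30.8, 19.9 and 12.5 TPM against 97.4 and 66.4 TPM (log2 fold change -2.12 ± 0.31 (SE), edgeR adjusted p = 0.00232), and Traf1, an adaptor of TNF receptors, at 139, 104 and 110.05 TPM against 559.5 and 353 TPM (log2 fold change -2.08 ± 0.23 (SE), edgeR adjusted p = 0.000556). Each was lower in all epidermal libraries, and each call was kept in all alternatives. Within the epidermal group, replicate 1 stood apart: the summed level of the list was 9204, 3956 and 3903 TPM against 7739.9 and 7807 TPM, and the feedback gene Tnfaip3 was at 1359, 205 and 213 TPM against 633 and 545 TPM. The count of 9 was 14 without that library, 4 without epidermal replicate 2 or 3 or dermal CCR6+ replicate 1, and 5 without dermal CCR6+ replicate 2. Traf1 and Tnfaip3 were chosen after their values were seen.

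Upstream sequence is shown here too for genes of both directions. An NF-kB element was searched on both strands as GGG followed, after 3 bases of any kind, by TTCC, in the same windows, of which 4.65% held it. Ltb, higher in epidermal ILCs, and 4 genes lower in them are shown. These genes too were picked after their values were seen, and a match describes the letters and is not evidence of binding.
Ltb (chr17:35194400-35194449, plus strand): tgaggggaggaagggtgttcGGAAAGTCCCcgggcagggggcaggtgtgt
Nfkbie (chr17:45555574-45555623, plus strand): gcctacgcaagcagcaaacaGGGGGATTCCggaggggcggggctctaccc
Rel (chr11:23771031-23771080, minus strand): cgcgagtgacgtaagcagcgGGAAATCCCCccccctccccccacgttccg
Ifngr2 (chr16:91546964-91547013, plus strand): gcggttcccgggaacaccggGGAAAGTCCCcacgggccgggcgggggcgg
Tnfrsf9 (chr4:150927936-150927985, plus strand): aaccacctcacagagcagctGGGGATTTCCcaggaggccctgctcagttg
The matches began between 43 and 106 bases before the start site, and none of these stretches held the interferon element. Tnfrsf9 has 2 promoters in the table, of which 1 is shown.

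Immediate early and heat shock genes, which respond within minutes to stimulation and to tissue handling, were lower in 10 of 28 cases and higher in none. Nr4a2, an orphan nuclear receptor, was at 4.35, 12.3 and 3.30 TPM against 66 and 118 TPM (log2 fold change -4.82 ± 0.28 (SE), edgeR adjusted p = 1.90e-05), and Atf3, a stress-induced repressor, at 162, 83.1 and 63.5 TPM against 434 and 498 TPM (log2 fold change -2.35 ± 0.29 (SE), edgeR adjusted p = 0.000904). Ier3 was at 7.58, 4.70 and 5.53 TPM against 122 and 40.3 TPM (log2 fold change -3.92 ± 0.43 (SE), edgeR adjusted p = 0.000519). All 3 were lower in each epidermal library and kept their calls. Other members did not follow: Nr4a1, the close relative of Nr4a2, was at 1331, 211 and 280.2 TPM against 837 and 625 TPM, so that epidermal replicate 1 exceeded both dermal libraries while the other 2 epidermal libraries were under them. The summed level of the list was 12878, 6561 and 7033 TPM against 11258 and 12447 TPM. The count of 10 was 6 without dermal CCR6+ replicate 1. Nr4a3 lost its call without epidermal replicate 2 or dermal CCR6+ replicate 1 and in the fit of the 5 libraries (3.13e-19 to 0.106). How the handling of the layers entered these levels was not tested. Atf3 and Nr4a1 were chosen after their values were seen.

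Feedback regulators of cytokine and MAP kinase signalling were lower in 5 of 21 cases and higher in none. Socs3, which shuts off STAT3 signalling, was at 12.3, 9.01 and 11.4 TPM against 81.1 and 36.2 TPM (log2 fold change -2.55 ± 0.33 (SE), edgeR adjusted p = 0.00116), and Socs2 at 13.2, 13.4 and 8.32 TPM against 46.2 and 57.8 TPM (log2 fold change -2.15 ± 0.26 (SE), edgeR adjusted p = 0.000833). Dusp10, a phosphatase of stress kinases, was at 30.7, 7.71 and 9.65 TPM against 92.5 and 92.4 TPM (log2 fold change -2.74 ± 0.43 (SE), edgeR adjusted p = 0.00367). The groups were apart in each, and these 3 calls were kept in all alternatives. Dusp5 lost its call without dermal CCR6+ replicate 2 (8.48e-12 to 0.0593), without which the count was 3.

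Amino acid and polyamine genes were lower in 8 of 28 cases, with Arg1 the 1 member called higher and a median log2 fold change of -0.62. The 2 parts of the transporter of large neutral amino acids were both lower: Slc7a5 was at 23.6, 16.8 and 19.6 TPM against 113 and 85.5 TPM (log2 fold change -2.51 ± 0.21 (SE), edgeR adjusted p = 0.000121) and Slc3a2 at 239, 138 and 132 TPM against 636 and 701 TPM (log2 fold change -2.18 ± 0.22 (SE), edgeR adjusted p = 0.000277). Slc7a1, which imports arginine, was at 21.5, 26.5 and 16.1 TPM against 94.6 and 87.7 TPM (log2 fold change -1.96 ± 0.24 (SE), edgeR adjusted p = 0.000784). In each of the 3 transporter genes the dermal libraries held more than every epidermal one. Odc1, the first enzyme of polyamine synthesis, was at 361, 135 and 156 TPM against 991 and 1116 TPM (log2 fold change -2.46 ± 0.31 (SE), edgeR adjusted p = 0.00108), and Amd1, which supplies the aminopropyl donor of that pathway, at 58.6, 42.99 and 55.1 TPM against 121 and 119 TPM (log2 fold change -1.33 ± 0.20 (SE), edgeR adjusted p = 0.00287). Both enzymes were lower in all epidermal libraries while arginase was higher. The calls of these 5 genes were kept in all alternatives. Slc7a1 and Amd1 were chosen after their values were seen.

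Genes of fatty acid handling were lower in 6 of 29 cases and higher in none. Dgat1, which makes triglycerides, was at 80.8, 42.9 and 37.6 TPM against 468 and 471 TPM (log2 fold change -3.05 ± 0.33 (SE), edgeR adjusted p = 0.000469), and Plin2, a coat protein of lipid droplets, at 17.4, 19.6 and 25.7 TPM against 65.4 and 61.03 TPM (log2 fold change -1.61 ± 0.26 (SE), edgeR adjusted p = 0.00413). Hilpda, an inhibitor of droplet breakdown, was at 318, 144 and 189 TPM against 700.03 and 930.2 TPM (log2 fold change -2.07 ± 0.24 (SE), edgeR adjusted p = 0.000732). Scd1, a desaturase, was at 12.2, 28.4 and 31.1 TPM against 84.8 and 88.8 TPM. All 4 genes were lower in each epidermal library, and the calls of Dgat1, Plin2 and Hilpda were kept, while Scd1 lost its call without either dermal library and in the fit of the 5 libraries (1.04e-10 to 0.0847). Cd36 and Fabp4, which vessels and fat also express, had 0 and 4 counts over the epidermal libraries and stood at 59.3 and 20.9 TPM and at 237 and 90.2 TPM in the dermal ones, higher in the library with the higher endothelial sum. The part of those cells in these levels was not tested. Of 14 sebocyte genes, 4 were lower, and their summed level was 407, 439 and 577 TPM against 853 and 945 TPM; the count was 1 without either dermal library. Plin2 and Hilpda were chosen after their values were seen.

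Of 30 glycolysis and hypoxia genes, 6 were lower and none higher, with a median log2 fold change of -0.32. Ndrg1, a gene that low oxygen induces, was at 24.8, 10.6 and 21.9 TPM against 84.9 and 64.8 TPM (log2 fold change -2.21 ± 0.30 (SE), edgeR adjusted p = 0.00163), and Egln3, the oxygen sensor that marks HIF for destruction, at 41.4, 37.9 and 27.1 TPM against 91.9 and 113 TPM (log2 fold change -1.65 ± 0.28 (SE), edgeR adjusted p = 0.00572). Hk2 and Slc2a1, which take up and trap glucose, were at 15.9, 2.92 and 10.3 TPM against 74.5 and 50.6 TPM and 69.6, 31.5 and 45.1 TPM against 121 and 116 TPM. All 4 were under the dermal level in every epidermal library. The calls of Ndrg1 and Egln3 were kept, that of Hk2 was lost without epidermal replicate 2 or 3 or dermal CCR6+ replicate 1 (1.40e-09 to 0.110) and that of Slc2a1 without dermal CCR6+ replicate 1 (1.83e-05 to 0.0842). The count of 6 was 3 without epidermal replicate 3 and 2 without dermal CCR6+ replicate 1. Cholesterol genes did not follow: 1 of 27 was higher and 2 were lower, with a median log2 fold change of 0.19. Fdft1, which commits the pathway to sterols, was higher at 35.1, 55.6 and 49.6 TPM against 12.1 and 14.5 TPM (log2 fold change 1.73 ± 0.34 (SE), edgeR adjusted p = 0.0135), a call lost without either dermal library (5.76e-05 to 0.103). Sqle, the next enzyme, was at 67.6, 71.7 and 62.4 TPM against 28.4 and 29.4 TPM, above in each epidermal library but not called (edgeR adjusted p = 0.0795), and was chosen after its values were seen. Sqle was called higher in 3 of 15 alternatives. The lower call of Abca1, which exports sterols, was lost without epidermal replicate 1 or 3 or either dermal library (0.00281 to 0.275).

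Genes of antigen presentation on MHC class II were lower in 4 of 10 cases and higher in none. H2-Ab1 was at 66.8, 53.6 and 62.9 TPM against 318 and 388 TPM (log2 fold change -2.64 ± 0.33 (SE), edgeR adjusted p = 0.000883), H2-Aa at 36.7, 31.7 and 65.2 TPM against 234 and 274 TPM (log2 fold change -2.63 ± 0.44 (SE), edgeR adjusted p = 0.00546) and H2-Eb1 at 28.3, 22.6 and 36.2 TPM against 154 and 188 TPM (log2 fold change -2.67 ± 0.42 (SE), edgeR adjusted p = 0.00367). These chains present peptides to T cells and are made by dendritic cells, Langerhans cells, B cells and some type 3 ILCs, and their calls were kept in all alternatives. The invariant chain gene Cd74 was at 699, 464 and 605 TPM against 1043 and 1378 TPM, lower in each epidermal library, but lost its call without any 1 of the 5 libraries (0.000141 to 0.240). Macrophage and dendritic cell markers were higher in the same dermal libraries, as given above, and 1 of 7 B cell genes was lower (Ebf1), with summed levels of 19.8, 14.5 and 18.6 TPM against 37.99 and 24.3 TPM. Their part in the class II difference was not tested.

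TGF-beta genes were lower in 6 of 30 cases and higher in none. Tgif1, a repressor of the pathway's SMAD proteins, was at 116, 67.3 and 61.7 TPM against 335 and 273 TPM (log2 fold change -2.06 ± 0.26 (SE), edgeR adjusted p = 0.00101), with both dermal libraries above all epidermal ones in a call that was kept. Of the others, Ltbp4 and Lrrc32, which hold latent TGF-beta outside cells, and the ligand gene Tgfb3 were at most 5.34 TPM in the epidermal libraries. Ltbp4 and Lrrc32 lost their calls without epidermal replicate 2 or dermal CCR6+ replicate 1, and Ltbp4 also without epidermal replicate 1 (3.73e-10 to 0.242 and 8.04e-13 to 0.132), while Tgfb3 lost it in the fit of the 5 libraries (4.61e-12 to 0.0921). The count of 6 was 2 without epidermal replicate 2 or dermal CCR6+ replicate 1. Integrins had 1 lower call among 19, close to the 5.19% lower over all genes tested. It was Itgav, the chain that activates latent TGF-beta with its partners, at 55.5, 66.2 and 36.4 TPM against 149.5 and 112 TPM (log2 fold change -1.47 ± 0.24 (SE), edgeR adjusted p = 0.00396), a call kept in all alternatives.

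Markers of the other skin cells gave few calls: 1 of 17 hair follicle genes was higher (Cst6), and 1 of 7 melanocyte genes (Mitf) and 1 of 6 erythroid and platelet genes (Pf4) were lower. Cst6 lost its call without epidermal replicate 2 or 3 or either dermal library (adjusted p from 5.21e-07 to 0.222 over its alternatives), Mitf without any 1 epidermal library or dermal CCR6+ replicate 1 (adjusted p from 0.00300 to 0.407) and Pf4 in the fit of the 5 libraries (adjusted p from 2.22e-15 to 0.111). None of 5 neutrophil genes was called by edgeR (0 at an unadjusted p under 0.05, 0 by DESeq2 and 0 by limma), and the 5 of 11 Langerhans cell genes that were lower were class II genes and Mfge8. The remaining groups of lymphocyte and cell biology genes are to be read beside 5.19% lower and 0.987% higher over all genes tested. In small groups 1 or 2 calls can exceed those shares, as in the Ly6, GIMAP and Kruppel-like lists, among others. Of 28 Notch pathway genes, 32 cell cycle genes and 12 S100 genes none was called by edgeR. For Notch genes the counts were 4 at an unadjusted p under 0.05, 2 by DESeq2 and 0 by limma, for cell cycle genes 3 at an unadjusted p under 0.05, 1 by DESeq2 and 0 by limma, and for S100 genes 4 at an unadjusted p under 0.05, 1 by DESeq2 and 1 by limma. Notch1 was at 20.5, 11.3 and 12.5 TPM against 16.04 and 14.5 TPM. Of 18 genes of type 1 ILCs and natural killer cells, 1 was higher (Tnfsf10, given above) and none lower, and of 17 killer cell lectin-like receptors 1 was lower (Klrg1, at 0.560, 0.900 and 0.580 TPM against 3.68 and 5.42 TPM). Of 9 Ly6 genes, Ly6d and Ly6g6c, which keratinocytes express, were higher and Ly6c1, which endothelium expresses, was lower at 5.62, 2.43 and 21.2 TPM against 409.8 and 148 TPM. Ly6d and Ly6g6c lost their calls without epidermal replicate 2 or 3 or either dermal library (7.54e-14 to 0.240 and 2.90e-15 to 0.130). Of 8 GIMAP genes, small GTPases of lymphocytes, 2 were lower: Gimap6 was at 3.55, 3.34 and 4.81 TPM against 11.5 and 7.63 TPM and Gimap4 had no epidermal count, and both calls were lost in the fit of the 5 libraries, that of Gimap6 also without dermal CCR6+ replicate 1 (4.09e-05 to 0.262 and 3.59e-24 to 0.0696). Of 13 Kruppel-like factors Klf2 and Klf13 were lower, the latter at 67.7, 59.5 and 59.5 TPM against 117 and 128 TPM in a call lost without either dermal library (2.15e-05 to 0.0816), and the count of 2 was 4 without epidermal replicate 1. Of 8 aryl hydrocarbon receptor pathway genes Nfe2l2 was lower, a call that 6 of 15 alternatives kept (0.000601 to 0.181).

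**Figure D5:**
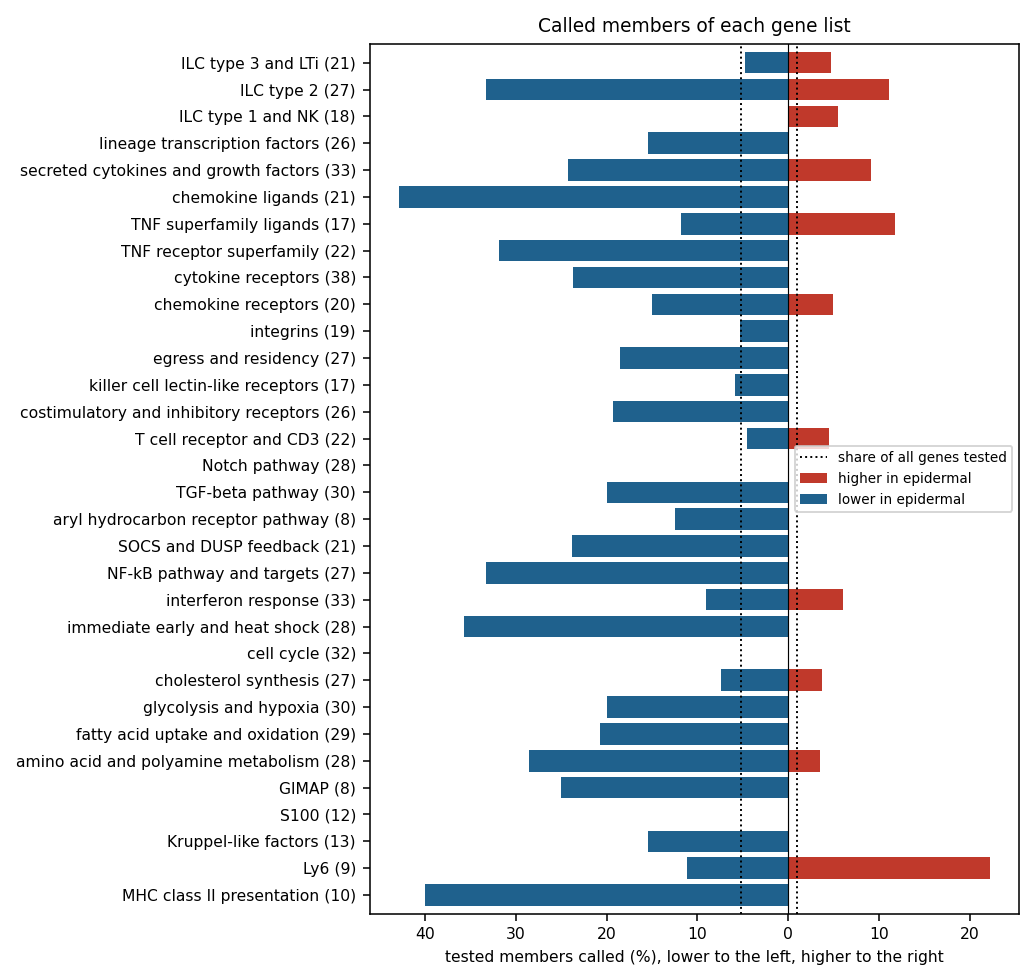
Share of tested members of each gene list called lower (blue, to the left) or higher (red, to the right) in epidermal ILCs, in percent, with the number of tested members in parentheses. Dotted lines mark the shares over all genes tested, 5.19% lower and 0.987% higher; Notch pathway, cell cycle and S100 lists have no bar.

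The rule that named genes by size of change gave, on the epidermal side, genes of upper epidermis. Krtdap, made by differentiating keratinocytes, was at 2619.9, 14436 and 14044 TPM against 571 and 766 TPM, and the desquamation genes Klk7 and Spink5, a protease and its inhibitor, were at 43.5, 167 and 168 TPM against 10 and 4.76 TPM and 16.4, 60.05 and 44.9 TPM against 0.790 and 1.60 TPM. Skint10, a relative of the gene that selects dendritic epidermal T cells, was at 18.2, 78.3 and 60.9 TPM against 1.47 and 3.20 TPM, and Oas1f, of the antiviral oligoadenylate synthetase family, at 21.7, 59.01 and 51.7 TPM against 2.26 and 2.40 TPM. Epidermal replicate 1 was the lowest of its group for all of them. Clic3, a chloride channel gene, was at 58.4, 309 and 193 TPM against 8.01 and 14.8 TPM. The others were Cdsn, Hal, Orm1, Scel, Flg2 and Serpinb7, with log2 fold changes of 4.39 to 9.14, and, nearly without dermal counts, Wfdc21, Lce1m and Crct1. Of these 15 genes, Flg2, Scel, Wfdc21 and Crct1 kept their calls without each library in turn, whereas the other 11 lost theirs without at least 1 of the dermal libraries, with adjusted p of up to 0.196.

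On the dermal side the rule gave genes of matrix, vessels, lipid transport and inflammation. Besides Col3a1, Lyz2 and Il6, these were the collagens Col1a1 and Col1a2, the proteoglycan gene Dcn, the fibre component Mfap2, the water channel gene Aqp1, the lipid carrier gene Fabp4, and Rarres2, Retnla and Lrg1, and the 12 log2 fold changes ran from -11.62 to -7.06. Dcn was at 0, 0 and 4.57 TPM against 256 and 147 TPM and Aqp1 at 0, 0.03 and 0.380 TPM against 95.7 and 28.9 TPM. Crabp1 and Apod, with 0 and 2 counts over the epidermal libraries, were at 87.1 and 68.6 TPM and at 123 and 52.7 TPM in the dermal ones. Dermal CCR6+ replicate 1 was the higher of its group for each gene of this paragraph, most of all for Retnla (275 against 10.9 TPM), as it was for the fibroblast and endothelial sums. The part of those cells was not tested.

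Calls were also counted among the 5534 tested genes with at least 10 TPM in all 5 libraries, a subset chosen after the data were seen. Of these, 42 were higher (0.759%) and 294 lower (5.31%), close to the shares over all genes. The subset still held keratinocyte genes, such as Krt10, Krtdap and Ly6d, whose lowest values were 47.3, 571 and 90.6 TPM, so it does not separate genes of the ILCs from those of the tissue. Among the falls were Gpr132, a receptor for lysophospholipids, at 30.9, 11.04 and 17.4 TPM against 175 and 211 TPM (log2 fold change -3.46 ± 0.28 (SE), edgeR adjusted p = 0.000107), and Gch1, which makes the cofactor tetrahydrobiopterin, at 22.7, 11.4 and 12.3 TPM against 96.9 and 129.9 TPM (log2 fold change -3.03 ± 0.25 (SE), edgeR adjusted p = 0.000107). Nabp1, a single-stranded DNA binding protein, was at 21.3, 20.9 and 20.5 TPM against 216 and 208 TPM (log2 fold change -3.35 ± 0.23 (SE), edgeR adjusted p = 4.93e-05). In each of these genes both dermal libraries were above all epidermal ones. Higher in epidermal ILCs were the RNA decay factor gene Zfp36l2, at 637, 231 and 383 TPM against 136 and 119 TPM (log2 fold change 1.53 ± 0.32 (SE), edgeR adjusted p = 0.0174), the lymphocyte adaptor gene Sash3, at 279, 149 and 202 TPM against 68.8 and 98.6 TPM (log2 fold change 1.18 ± 0.24 (SE), edgeR adjusted p = 0.0152), and the antiviral deaminase gene Apobec3, at 137, 77.3 and 90.2 TPM against 45.8 and 44.1 TPM (log2 fold change 1.07 ± 0.23 (SE), edgeR adjusted p = 0.0199). The 3 falls were kept in all alternatives, while Zfp36l2 and Apobec3 lost their calls without either dermal library (1.38e-06 to 0.129 and 0.000156 to 0.144) and Sash3 without dermal CCR6+ replicate 1 (2.32e-05 to 0.142). These 6 genes were chosen after their values were seen.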

How the data were processed

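Gene expression was measured by low-input RNA-seq of ILCs sorted from adult B6 mouse skin, in 3 epidermal and 2 dermal CCR6+ libraries. The deposited tables held RSEM gene results with 47643 IDs each. Expected counts, per the file headers, are the authors' RSEM estimates of fragments per gene, with ambiguous reads shared by probability. TPM values, per the file headers, are the authors' deposited levels corrected for effective length and scaled to the same total in each library. The submitters' processing notes name the build mm10 and the tools RSEM, STAR and Trimmomatic; versions, strand setting and annotation were not given there.

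Symbols and coordinates came from a GRCm38 annotation (47224 IDs matched). Groups were taken from sample titles. Expected counts were rounded, filtered by expression (minimum count 10), scaled by TMM and fitted with edgeR 4.0.16 (glmQLFit, glmQLFTest) on 10 libraries in 4 groups, with an adjusted p under 0.05 called and the SE taken as the log2 fold change over the root of F. The common coefficient of variation between replicates was 0.62. Alternatives were DESeq2 1.42.0, limma 3.58.1 on log2(TPM + 1), RLE factors, other count filters, robust dispersions, a minimum log2 change of 1, the 5 libraries alone, 2 replicate blocks, and each library left out; added after seeing the data was a subset of genes at 10 TPM or more. The fit was tested on simulated data. Expected counts carry no molecular identifiers, so intervals and floors (3 counts over a group) cover counting error only; totals of at least 12703447 counts make counting error small for genes above a few TPM.

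Named genes were, per direction among called genes with separate groups and a mean of at least 20 TPM, the 12 with the largest change and 3 nearly absent from the other group, up to 4 called members of each of 47 lists (862 genes), 2 abundant uncalled members where fewer than 2 were called, and a set of ILC genes in any case; others are said to be chosen after their values were seen. Those ranks took no predicted, pseudo-, mitochondrial or ribosomal protein genes and no T or B cell receptor segments. The comparison, lists and rules were chosen with earlier results of these data known. Promoter sequences came from RefSeq (GRCm38.p6). Single members of some lists are counted but not reported by name here.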

Additional observations from a re-analysis of the deposited data

How the results depend on the processing

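The 160 higher and 841 lower calls became 496 and 1532 without the count filter and 585 and 1416 with DESeq2. With limma 344 genes were higher, in the fit of the 5 libraries 482 were lower, and among genes at 10 TPM or more, a subset added after seeing the data, 42 were higher and 294 lower. Leaving out 1 library at a time gave 59 to 198 higher and 573 to 883 lower calls. A stricter filter, RLE factors, robust dispersions and a minimum log2 change of 1 kept both counts within 1.5 times. Replicates of the same title number showed little shared deviation from their group means (r of -0.038 and -0.032). Libraries were also grouped by runs of the numbers in their deposited names, which the labels do not explain (r of 0.032 and -0.003). With 2 dermal libraries the deviations mirror each other, so these values cannot decide whether samples were paired. With the replicate block by title number 72 genes were higher and 596 lower. With the replicate block by runs of deposited numbers 142 were higher and 850 lower. Of 186 named genes that were called, 105 held the call in each alternative that tested them, and all kept their direction; 326 of 2786 gene and alternative pairs missed the threshold. Calls lost in the fit of the 5 libraries alone included those of Klf13, Abca1, Zfp36l2, Ly6d, Ly6g6c, Ltbp4, Lrrc32, Mitf and Tnfrsf18. Those lost with limma included Il1rn, Abca1, Cd74 and Mitf. Klf13 and Tnfrsf18 also missed the minimum log2 change of 1. The genes that changed sign were 19 uncalled ones. Leaving out 1 library at a time moved the log2 fold change of Cd4 from -8.72 to 1.89, Hba-a1 from -0.50 to 0.52, Il17rb from -0.22 to 0.59, Il1rl1 from -5.80 to 3.09, Il22 from -0.72 to 0.0867, Il4 from -0.0254 to 0.56, Itgae from -0.37 to 0.57, Kit from -0.0228 to 0.83, Klrb1b from -0.16 to 0.57, Krt15 from -0.0699 to 0.62, Krt17 from -0.18 to 0.87, Krt79 from -0.14 to 0.49, Ly6a from -0.0406 to 1.03, Mcm6 from -0.41 to 0.0641, Ptprc from -0.10 to 0.41, S100a4 from -0.26 to 0.18, S100a8 from -4.79 to 4.99 and Tnfaip3 from -1.47 to 0.14. With limma the log2 fold changes with the opposite sign were Hba-a1 -0.19, Il1rl1 -0.0655 and S100a8 -0.10. With the replicate block by runs of deposited numbers the log2 fold changes with the opposite sign were Cd4 0.80, Il22 0.10, Il4 -0.10, Krt79 -0.21 and S100a8 -0.78. With the replicate block by title number the log2 fold changes with the opposite sign were Cd79b 0.0223, Hba-a1 -0.16, Il22 0.98, Krt79 -0.0488, S100a4 -0.0678 and S100a8 -1.75. Il1rl1 was called lower without epidermal replicate 1, in which it had its highest level, and higher in 1 other alternative. The cause of these shifts was not tested. With 2 dermal libraries, a fit that leaves 1 out assumes that the other varies like the remaining groups. Genes of few counts, and folds against groups with none, are limited by depth.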

Other observations

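Genes that cyclic AMP is known to induce in lymphocytes formed no list above, and those named here were chosen after their values were seen, so no test was made of them as a group. Crem, which encodes a repressor that cyclic AMP induces, was among the most abundant lower genes, at 191, 53.9 and 67.6 TPM against 1588 and 2134 TPM (log2 fold change -4.33 ± 0.35 (SE), edgeR adjusted p = 0.000107). Pde4b, a phosphodiesterase that degrades cyclic AMP, was at 155, 58.4 and 60.05 TPM against 293 and 321 TPM (log2 fold change -1.80 ± 0.33 (SE), edgeR adjusted p = 0.00795), and the kinase gene Sik1, also a cyclic AMP target, at 95.9, 31.6 and 52.6 TPM against 184 and 181 TPM (log2 fold change -1.79 ± 0.32 (SE), edgeR adjusted p = 0.00795). In all 3 genes epidermal replicate 1 was the highest of its group and still under both dermal libraries, and all 3 calls were kept in each of 15 alternatives. Ramp3, Nr4a2, Rgs2 and Areg, described above, were lower in the same libraries, although the Rgs2 call was kept in only 11 of 15 alternatives. Nr4a1, the close relative of Nr4a2, overlapped between groups and was not called (log2 fold change -0.51 ± 0.63 (SE), edgeR adjusted p = 0.751).

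The type 2 cytokine locus on chromosome 11 (mm10) held genes of both directions. Il4 (53602982 to 53618669) was at 25.9, 8.47 and 13.1 TPM against 11.9 and 11.01 TPM and was not called. Il13 (53631324 to 53634702) and its neighbour Rad50 (53649519 to 53707319), a DNA repair gene whose introns hold control elements of the locus, were higher, Rad50 at 43.9, 24.5 and 18.9 TPM against 10.5 and 10.5 TPM (log2 fold change 1.61 ± 0.41 (SE), edgeR adjusted p = 0.0465). Il5 (53720794 to 53725106), on the far side of Rad50, was lower. The Rad50 call was lost without epidermal replicate 1 or 2, without either dermal library, in the fit of the 5 libraries and with limma (adjusted p of 0.000250 to 0.215 over the alternatives). Rad50 and Il4 were chosen after their values were seen.

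Other genes of at least 10 TPM in all 5 libraries that were lower in epidermal ILCs and kept their calls in each alternative were the endosomal sorting gene Vps37b, at 155, 31.02 and 31.1 TPM against 599 and 868 TPM, the nicotinamide riboside kinase gene Nmrk1, at 12.9, 12.2 and 12.4 TPM against 134 and 126 TPM, and Errfi1, a feedback inhibitor of the EGF receptor, at 27.5, 16.3 and 16.1 TPM against 119.8 and 164 TPM. Entpd1, which encodes the ATP-degrading surface enzyme CD39 and is also expressed by endothelium and macrophages, was at 0, 0.02 and 0 TPM against 12.5 and 2.28 TPM. These 4 genes were chosen after their values were seen.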
